A study of Mus musculus with 18 samples.

Results

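The effect of age was measured within the untreated males of a mouse muscle study, by setting 3 old untreated males (labelled male 1, 3 and 6) against 3 young untreated males (labelled male 1, 2 and 8). These 6 libraries, taken by the age, sex and treatment in their labels, are 6 of the 18 of the series. All mice were C57BL/6, with no allele or transgene given in the labels. The old mice were 19 months old and the young mice 8 months old, and neither compared group had received a drug. The tissue was the rectus femoris, a fast thigh muscle of the quadriceps group, from which poly(A) RNA was sequenced as paired-end reads. The series as a whole compares ages and asks how 3TC acts on the muscle of old animals. 3TC (lamivudine), a nucleoside inhibitor of reverse transcriptase, was given at 2 mg per mL of drinking water for 6 weeks to 3 old males and 3 old females. Those 6 libraries, with 3 old and 3 young untreated females, entered the model here as estimates of the spread between libraries, and the females also served to test whether the age change differed between the sexes. Nothing in the labels beyond the numbers says that each library is a separate animal, so p-values measure the spread between these libraries.

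Skeletal muscle of old mammals is known to lose mass and force, mostly from fast fibres, and to gain immune cells, fat and matrix between its fibres. A piece of muscle holds fibres, fibroblasts, vessels, nerve, fat and resident immune cells, and its RNA is a mixture of all of them. In such bulk samples fewer cells of a type and less RNA per cell cannot be told apart. Muscle also carries transcripts that respond within minutes to hours to exercise, stress hormones and heat, among them immediate early genes and heat shock genes. Values below are normalised counts, in which the authors scaled every library to the same total, and are listed in the order old males 1, 3 and 6, then young males 1, 2 and 8. Changes are differences of log2(normalised count + 1), old minus young, with the standard error (SE) from limma.

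The libraries were deep and matched their labels by sex and tissue. Recovered reads ranged between 64.2 M and 85.4 M over the 6 males. The Y-linked gene Kdm5d stood at 850.3, 661 and 747 in old males and 682, 582 and 654 in young males, and at 0 in all 6 untreated female libraries. The transcripts of fast muscle dominated: Myh4, the myosin heavy chain of the fastest fibres, had 1624200 to 3342000 normalised counts in old males and 1079800 to 2597300 in young males, and Ckm, the muscle creatine kinase, had 935400 to 1256900 in old and 831080 to 1328800 in young males. Transcripts of 2 other organs were present. Those of liver moved with the groups, and those of brain were high in 1 young library. Alb, the gene of serum albumin made by liver, had 143, 74.5 and 83 normalised counts in old males, against 5810.3, 3233 and 422 in young males. A liver score, the mean of log2(normalised count + 1) over 25 liver genes, was 3.71 ± 0.57 in old males and 7.78 ± 1.62 in young males (SD, n = 3 each), a difference of −4.07. That the young libraries hold more Alb was known when this comparison was chosen, so the score is given as a description, with no test. All 3 old males lay below all 3 young males, and of the 25 liver genes 19 did so, with Cyp3a11 and Cyp2c29 at 0 in every old male, where 2.75% of all genes lay below in this way. For 2 others of the 25, Trf and Cyp2e1, all old males lay above, as they did for 16.3% of all genes. A brain score over 17 genes was 5.61 ± 0.36 in old and 7.08 ± 2.22 in young males (difference −1.47, exact two-sided permutation p = 0.3, and −0.21 without young male 8). None of the 16 tested brain genes stood without overlap, and young male 8 was at 9.59, where the synaptic gene Snap25 had 2523 normalised counts, against 0 to 23.1 in the other 5 male libraries. The part of liver and brain RNA in the results that follow was not tested. For most of the gene groups below the median is also given relative to that of all genes, without and with the 2 organ scores as covariates. Because fewer libraries overlap less, the share of all genes without overlap was 20.5 to 33.0% above and 4.32 to 6.41% below when 1 male library was left out.

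In the fit of all 18 libraries 2 genes passed the threshold for age in males, Ide and Btaf1, and both rose. Ide, which encodes the insulin-degrading enzyme, a zinc protease that cleaves insulin and amyloid beta, had 15985, 13345 and 11995 normalised counts in old males, against 6992, 4724 and 6101 in young males. The lowest old library, male 6, stood far above the highest young library, male 1. The change was 1.22 ± 0.14 on the log2 scale, a 2.33-fold difference (adjusted p = 0.00246, limma with Benjamini-Hochberg adjustment). Btaf1, which encodes a helicase that strips the TATA-binding protein from DNA, had 2501, 1943 and 1811 normalised counts in old males, against 925, 829.9 and 1003 in young males. Again no old library reached down to a young one, and the change was 1.17 ± 0.18 (2.25-fold, adjusted p = 0.0447, limma). These 2 were called among 16060 genes tested, 0.0125% of them, and 0 were called lower. At an unadjusted p under 0.05 limma gave 1558 genes, 9.70% of those tested, of which 1392 (8.67%) were higher and 166 (1.03%) lower in old males.

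The 2 called genes lie close together on chromosome 19. In GRCm38 coordinates Btaf1 lies at chr19:36926079-37012752 on the plus strand and Ide at chr19:37268743-37337852 on the minus strand. From 500 kb before to 500 kb after the pair, 13 genes were tested. A further gene stood without overlap, Fgfbp3 at chr19:36917550-36919615, the gene of a secreted carrier of fibroblast growth factors that lies next to Btaf1. Fgfbp3 had 229, 246 and 254 normalised counts in old males, against 83.4, 98 and 146 in young males, a change of 1.19 ± 0.30 that did not pass the threshold (adjusted p = 0.305, limma). Genes inside and beside the stretch overlapped between the groups. Cpeb3, an RNA-binding regulator of translation that lies between Btaf1 and Ide, had 3368, 2878 and 2124 in old against 2774, 1729 and 2866 in young males (log2 difference 0.19). Tnks2, a tankyrase on the other side of Fgfbp3, had 9935, 8929.7 and 7639 in old against 9214, 7919 and 8328 in young males (0.05), and Exoc6, an exocyst subunit beyond Ide, had 5046, 4344 and 4570.3 in old against 4509.6, 4552 and 3779 in young males (0.12). The high level of Ide was shared by every old library of the series, with 11538 to 15985 normalised counts in 12 old libraries of both sexes and both treatments, against 4724 to 6992 in 6 young ones. Over the same libraries Btaf1 had 1396 to 2501 in old and 705 to 1003 in young mice, and Fgfbp3 had 138 to 346 in old and 83.4 to 147 in young mice, with overlap. A segment with Ide and Fgfbp3 is known to vary in copy number within the C57BL/6J strain. Genomic copy number was not measured in these data, so its part in the result was not tested.

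**Figure D1:**
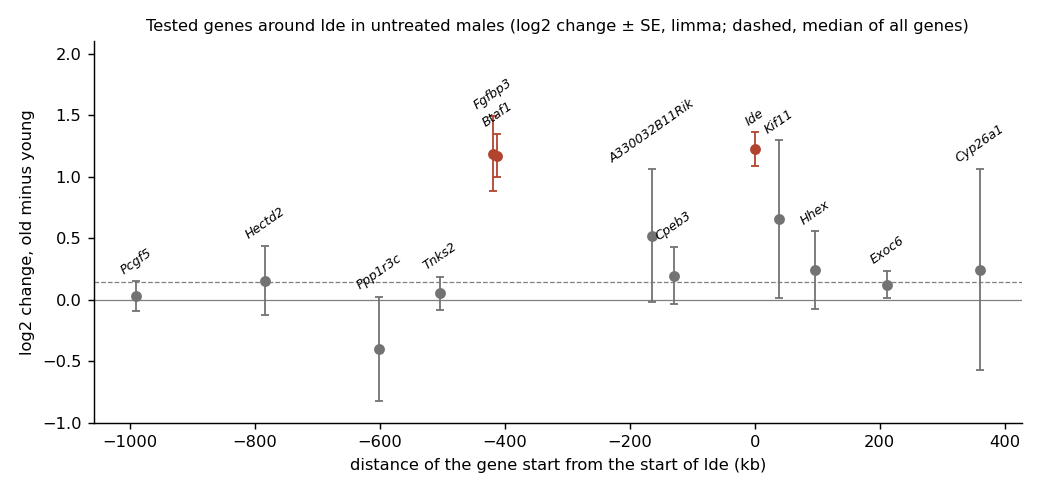
Log2 change with age in untreated males (old minus young, ± SE from limma, n = 3 each) of the 13 tested genes around Ide, against the distance of each gene's start from the start of Ide in kb. Ide, Btaf1 and Fgfbp3 (red, all old libraries above all young) stand at 1.17 to 1.22, and the genes between and beside them overlap between the groups (grey). The dashed line is the median of all genes at 0.15.

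The count of called genes depended on the setting. Leaving out young male 8, the library with the high brain score, gave 37 calls (30 higher, 7 lower), and leaving out any other single male library gave 1, which was Ide. Adding the 2 organ scores to the model gave 48 calls (45 higher, 3 lower), edgeR on the recovered reads gave 1 and DESeq2 gave 183 (54 higher, 129 lower), of which 57 of the lower ones had 0 reads in all 3 old males. A fit of the 6 male libraries alone called neither Ide nor Btaf1 but 3 lower genes, Nr4a3 and the liver genes Ttr and Serpina1e. Ide was called in 19 of the 20 alternatives and Btaf1 in 9.

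Beside Ide and Btaf1 the naming rule took the 4 increases and 6 decreases without overlap that had the smallest p. Of these, 0 passed the threshold. Spn, the gene of the leukocyte sialoprotein CD43, had 184, 192 and 323 normalised counts in old males, against 22.1, 42.6 and 75.2 in young males (log2 difference 2.41 ± 0.41, adjusted p = 0.0692, limma). Jchain, which joins antibody chains in plasma cells, had 589, 445 and 204 normalised counts in old males, against 11.1, 3.46 and 44 in young males (4.82 ± 0.89, adjusted p = 0.0912). For both genes every old library was well above every young one, although young male 8 was the highest of the young. Fam214a, a gene whose product is little described, had 2077, 1913 and 2134 normalised counts in old males, against 1209, 1065 and 1326 in young males (0.77 ± 0.13, adjusted p = 0.0683). Srsf5, a splicing factor, had 8300.2, 7041 and 6845 normalised counts in old males, against 5074, 4381 and 5165 in young males (0.60 ± 0.11, adjusted p = 0.0912). Both differences were small, and both genes varied little within a group. Slc25a25, a calcium-dependent carrier of ATP in the mitochondrial inner membrane, was the gene with the smallest p among decreases, at 605, 711 and 1176 normalised counts in old males, against 5879.7, 3180.2 and 3798 in young males (-2.38 ± 0.39, adjusted p = 0.0683). Its highest old library had 1176 normalised counts, and its lowest young library 3180. Irs2, an adaptor of the insulin receptor, had 1336, 1236 and 1185 normalised counts in old males, against 3204, 2679 and 1708 in young males (-0.97, adjusted p = 0.291), and Gadd45g, a stress-induced growth arrest gene, had 2109, 2410.5 and 2604 normalised counts in old males, against 5979, 4667 and 3579.8 in young males (-0.97, adjusted p = 0.295). Without young male 8 the 4 increases and, of the decreases named so far, Slc25a25 and Irs2 passed the limma threshold.

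**Figure D2:**
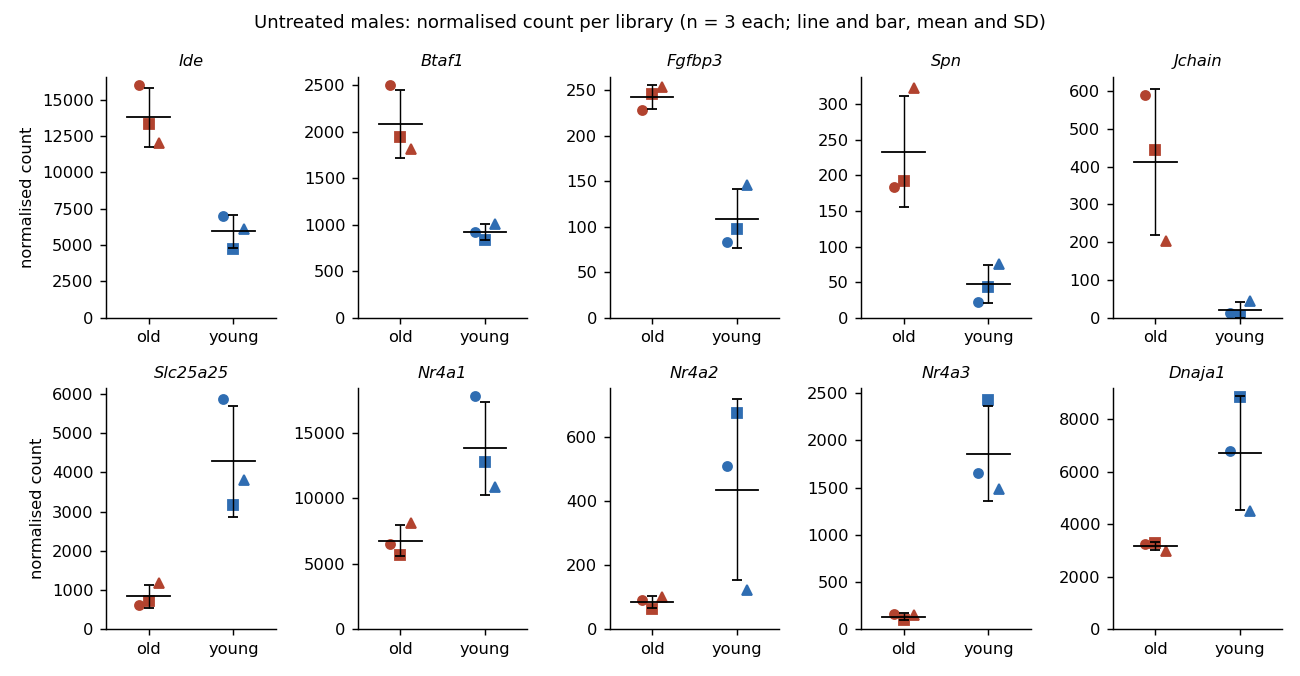
Normalised counts of 10 genes in the 3 old and 3 young untreated males, 1 point per library (circle, square and triangle are males 1, 3 and 6 in the old group and males 1, 2 and 8 in the young group), with the mean and SD. In every panel the old and young libraries do not overlap: the upper 5 genes are higher and the lower 5 genes lower in old males, and of the 10 only Ide and Btaf1 passed the threshold.

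The NR4A genes, 3 orphan nuclear receptors that exercise, adrenergic signals and cyclic AMP are known to switch on quickly, were lower in every old male than in any young male. Nr4a1 had 6523, 5669 and 8065 normalised counts in old males, against 17775, 12759 and 10867 in young males (log2 difference -1.02 ± 0.19, adjusted p = 0.0912, limma). Nr4a3 had 153, 89.3 and 152 normalised counts in old males, against 1656, 2433 and 1486 in young males (-3.82 ± 0.71, adjusted p = 0.0912), with a wide gap between every young and every old library. Nr4a2 had 90.1, 63.3 and 99.2 normalised counts in old males, against 509.7, 674 and 122 in young males (-2.06 ± 0.57, adjusted p = 0.335), with young male 8 close to the old libraries. None of the 3 passed the threshold over all genes, whereas Nr4a1 and Nr4a2 passed it without young male 8 and with both organ scores as covariates, and Nr4a3 in a fit of the 6 male libraries alone. Over 20 alternatives Nr4a1 and Nr4a3 passed in 3 each. The promoters of the 3 genes are shown because cyclic AMP signals are known to act on these genes through the factor CREB, whose core site reads TGACG, or CGTCA on the other strand. Each window runs from 250 bases before to 50 bases after the gene start in RefSeq (GRCm38.p6), 5′ to 3′ on the gene's strand, with TGACG and CGTCA in capitals. They are chr15:101266596-101266895 on the plus strand for Nr4a1, chr2:57123954-57124253 on the minus strand for Nr4a2 and chr4:48045055-48045354 on the plus strand for Nr4a3.
Nr4a1: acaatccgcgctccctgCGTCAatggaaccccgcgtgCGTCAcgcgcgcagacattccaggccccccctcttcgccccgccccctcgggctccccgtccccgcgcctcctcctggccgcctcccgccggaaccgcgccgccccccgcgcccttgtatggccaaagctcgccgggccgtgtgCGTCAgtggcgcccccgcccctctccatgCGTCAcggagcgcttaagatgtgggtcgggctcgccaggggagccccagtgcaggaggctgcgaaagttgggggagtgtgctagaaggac
Nr4a2: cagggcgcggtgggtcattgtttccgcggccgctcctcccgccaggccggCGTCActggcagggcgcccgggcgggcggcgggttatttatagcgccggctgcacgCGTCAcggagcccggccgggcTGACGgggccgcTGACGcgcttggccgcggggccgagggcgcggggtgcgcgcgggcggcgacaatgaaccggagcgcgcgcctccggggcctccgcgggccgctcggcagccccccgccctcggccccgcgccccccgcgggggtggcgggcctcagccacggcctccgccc
Nr4a3: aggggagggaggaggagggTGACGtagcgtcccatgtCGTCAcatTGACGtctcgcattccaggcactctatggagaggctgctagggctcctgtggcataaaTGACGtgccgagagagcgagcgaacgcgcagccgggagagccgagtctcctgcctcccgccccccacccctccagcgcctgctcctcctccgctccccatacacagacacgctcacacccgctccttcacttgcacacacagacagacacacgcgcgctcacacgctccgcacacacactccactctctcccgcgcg
Each of the 3 windows held 4 matches. Of 32851 RefSeq promoter windows of the same length, 20.8% held at least 1 match and 0.231% held 4 or more. A match is a description of the letters and not a bound site.

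Most other immediate early genes overlapped between the groups. Of 28 tested members, 3 lay below in all old males (the NR4A genes), where 2.75% of all genes did, and 1 above, Myc, by a margin that closed under median-of-ratios scaling. None was called and the median was −0.24. The count below was 8 without young male 8, where 4.91% of all genes lay below, and 7 without old male 6, where 4.46% did. Relative to all genes the median was −0.39, and −0.63 with both organ scores. Fos, the partner of Jun in the AP-1 factor, had 349.6, 329 and 402 normalised counts in old males, against 1236, 409 and 266 in young males, where young male 1 alone was high. Egr1, a zinc finger factor, had 1589.6, 1221 and 918 in old against 3385, 639.7 and 554 in young males, again highest in young male 1. Genes that respond to glucocorticoids, the adrenal stress hormones, had members on both sides: of 24 tested, 4 lay below in all old males, against 2.75% of all genes, 3 above, against 16.3%, and 0 were called (median 0.02). Without young male 8, 7 lay below, against 4.91% of all genes. Sgk1, a kinase induced by glucocorticoids, had 6255, 7199.5 and 5766 normalised counts in old males, against 9336, 7303 and 11555 in young males (-0.53 ± 0.20, adjusted p = 0.45, limma). Tsc22d3, which encodes the glucocorticoid-induced leucine zipper, had 10168, 9204 and 8396 normalised counts in old males, against 14067, 11019 and 19290 in young males (-0.64), and Gadd45g and Cebpb were the others below. In the clock list of 21 genes, Cry1 was the single member without overlap, lower in old males (965, 953 and 702 in old against 975, 1065 and 1054 in young males). Per1, which both glucocorticoids and the clock drive, had 1412, 1428 and 2481 in old against 4269, 2394 and 3797 in young males (-0.98 ± 0.27, adjusted p = 0.34), where old male 6 overlapped young male 2 by a small margin. The labels do not state the hour of tissue collection.

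Some heat shock genes, such as the inducible Hspa1a and Hspa1b, were lower in every old male than in any young male. For these the young libraries differed widely among themselves. Of 25 tested chaperone genes, 6 lay below in all old males (2.75% of all genes did), 0 above and 0 were called, with a list median of −0.13 against 0.15 for all genes. Relative to all genes that median was −0.28, and −0.44 with both organ scores. For another 6 of the 25 the log2 difference was above 0, at most 1.12. Dnaja1, a cochaperone of HSP70, had 3225, 3276 and 2972 normalised counts in old males, against 6790.5, 8849 and 4506 in young males (-1.04 ± 0.20, adjusted p = 0.13, limma). Hsp90aa1, the inducible HSP90, had 3531, 3049 and 2912 normalised counts in old males, against 6395, 12472 and 4538 in young males (-1.18 ± 0.29, adjusted p = 0.301). The inducible HSP70 gene Hspa1a had 392, 643 and 635 normalised counts in old males, against 5436, 8697 and 1457 in young males (-2.91 ± 0.80), and Hspa1b had 331, 586 and 510.1 normalised counts in old males, against 6654, 11380 and 1056 in young males (-3.22 ± 0.92). Hspa1a and Hspa1b are nearly identical, so reads may be split between them. For these genes young male 2 was highest and young male 8 lowest of the young libraries. Young male 2 also had the largest share of counts from mitochondrial DNA, 35% against 17.5 to 27.7% in the other 5 males. The collagen chaperone Serpinh1 and the HSP90 partner Chordc1 completed the 6. The levels of the constitutive chaperones Hspa8 (62364, 59848 and 55592 in old against 64490, 72950 and 57872 in young males) and Hsp90ab1 (79261, 65988 and 58682 in old against 68173, 58188 and 67615 in young males) and the small heat shock protein gene Cryab (0.27) overlapped. Without young male 8, 12 of the 25 lay below in the old males, where 4.91% of all genes did. Under median-of-ratios scaling 9 did, against 7.83% of all genes.

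Markers of lymphocytes were higher in old males from T cells to plasma cells. Of the 13 tested T and NK cell markers (19 in the list), all 3 old males lay above all 3 young males for 12, as they did for 16.3% of all genes, with a median log2 difference of 2.22 against 0.15 for all genes. None of the 13 was called. The filter asked for a mean of at least 10 over 18 libraries, so a marker with few counts could pass it through the old males alone. Here and for other markers with few counts, the share without overlap and the median are therefore descriptions and not a test. Cd3g, a chain of the T cell receptor complex, had 37.3, 20.8 and 149 normalised counts in old males, against 6.03, 0 and 0 in young males (4.71 ± 1.04, adjusted p = 0.224, limma). Cd4, the coreceptor of helper T cells, had 98.3, 102 and 207 normalised counts in old males, against 22.1, 11.5 and 32.2 in young males (2.60), and Lck, the kinase bound to it, had 79.2, 45.1 and 154 normalised counts in old males, against 15.1, 23.1 and 13.7 in young males (2.22). Ccl5, a chemokine of activated T and NK cells, had 143, 60.7 and 405 normalised counts in old males, against 14.1, 6.92 and 43 in young males (3.14). Old male 6 was the highest library for all 4 genes. The summed level of the list was 649 to 2181 normalised counts in old males and 228 to 422 in young males. Of 7 tested B and plasma cell markers, 4 lay above in all old males (16.3% of all genes did), with a median of 1.91 and 0 called. Without old male 3 all 7 did, against 20.5% of all genes. Ms4a1, the B cell surface protein CD20, had 81, 18.2 and 32.4 normalised counts in old males, against 0, 0 and 2.93 in young males (4.57), and Cd79a, part of the B cell receptor, had 168, 43.3 and 64.8 normalised counts in old males, against 10.1, 27.7 and 28.3 in young males (1.91). Here old male 1 was the highest. Ratios of genes at so few counts depend on the pseudocount: with 10 in place of 1 the differences were 2.39 for Cd3g and 2.13 for Ms4a1. After adding both organ scores to the model the T and NK list lay 2.60 above the median of all genes, against 2.07 without them, and the B and plasma list 2.09 above it, against 1.76.

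Myeloid markers and class II genes were also higher at their medians, but young male 8 overlapped the old males for most of them. All 23 macrophage markers had a positive log2 difference (median 1.10), yet 8 lay above in all old males, against 16.3% of all genes, and 0 were called. Aif1, an actin-binding protein of macrophages, had 151, 167 and 274 normalised counts in old males, against 32.2, 40.3 and 109 in young males (1.85 ± 0.51, adjusted p = 0.335, limma), and the scavenger receptor Mrc1 had 2182, 1963 and 3146 normalised counts in old males, against 566, 1037 and 1774 in young males (1.23). Siglec1, a lectin of resident macrophages, had 297, 254 and 265 normalised counts in old males, against 41.2, 21.9 and 237 in young males (2.15). Cd163, by contrast, had 1803, 1866 and 2415 in old against 597, 892 and 2365 in young males (0.90), with young male 8 above 2 of the old libraries. Without young male 8, 21 of the 23 lay above in all old males, where 33.0% of all genes did. The macrophage median relative to all genes was 0.95, and 1.05 with both organ scores. Of 10 tested class II genes 1 lay above in all old males, H2-Eb2 (38.2, 28.6 and 32.4 in old against 0, 2.31 and 13.7 in young males). Without young male 8, 9 of them did, against 33.0% of all genes. H2-Aa, a class II chain, had 5066, 5439 and 9063 normalised counts in old males, against 1648, 2826 and 5790.4 in young males (1.07). The class II median relative to all genes was 0.83, and 0.98 with both organ scores. Of 10 tested neutrophil markers 6 lay above in all old males, where 16.3% of all genes did, and 0 were called. A positive log2 difference was found for 8 of the 10, and the lowest was −1.09. Among the 6 was the gelatinase gene Mmp9 (628, 740.2 and 665 in old against 226, 255 and 464 in young males, 1.17). Platelet and red cell genes had a median of 0.69, with 2 of 9 above, a share of 22.2% near the 16.3% of all genes. The count was 8 without young male 2, against 21.1% of all genes, and 6 without old male 1, against 24.3%. Among the 2 was Pf4, which encodes platelet factor 4 (588, 815 and 1121 in old against 179, 340.0 and 538 in young males).

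Complement is the protein cascade that tags cells and debris for clearance. Of its 26 tested genes 14 lay above in all old males and 1 below, where 16.3% and 2.75% of all genes did, with a median of 0.99 and 0 called. Without young male 8, 22 lay above, against 33.0% of all genes. Relative to all genes the median was 0.84, and 1.03 with both organ scores. C4b had 4174, 3248 and 4189.8 normalised counts in old males, against 911, 591 and 1285 in young males (2.12 ± 0.40, adjusted p = 0.0973, limma), and C4a had 296, 240.1 and 289.9 normalised counts in old males, against 105, 56.5 and 86 in young males (1.77 ± 0.39, adjusted p = 0.222). C4a and C4b are near-identical copies, and their reads may be split. C3, on which the pathways converge, had 23802, 24109 and 26154 normalised counts in old males, against 9154, 8072 and 14192 in young males (1.28 ± 0.33, adjusted p = 0.302). For C3 the 3 old libraries lay close together, and young male 8 was the highest of the young for both C4b and C3. Components of the classical pathway (C1ra, C1s1, C2), factor B (Cfb) and the inhibitor Serping1 also stood without overlap, at log2 differences of 0.69 for C1s1, 0.79 for C1ra, 1.41 for C2, 1.33 for Cfb and 0.76 for Serping1. The exception was Cfi, a protease made in liver, with 1.82, 0 and 0 in old against 47.2, 28.8 and 2.93 in young males. With both organ scores as covariates C4b, C4a and C3 passed the limma threshold, at adjusted p = 0.00242, 0.00514 and 0.00394, and without young male 8 C4b did so.

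MHC class I genes encode the molecules that present peptides from inside the cell. Of 24 tested genes 19 lay above in all old males, where 16.3% of all genes did, 0 below and 0 were called, with a median of 0.60 on the log2 scale and a range of 0.11 to 1.22. H2-T22, a nonclassical heavy chain, had 880.4, 1108 and 1230.1 normalised counts in old males, against 642, 695 and 785 in young males (0.59 ± 0.16, adjusted p = 0.335, limma). H2-T23 (1011, 1265 and 1497 in old against 633, 801 and 738 in young males, 0.78) and the immunoproteasome subunit gene Psmb9 (309, 484 and 509 in old against 185, 212 and 250.2 in young males, 0.98) showed the same order, as did the peptide transporter gene Tap1 (1.22), the light chain gene B2m (0.53) and Nlrc5, the activator of class I genes (1.10). The H2 heavy chain genes are close relatives and may share reads. Interferon-stimulated genes had a median of 0.55, with 18 of 50 above in all old males (16.3% of all genes) and 0 called. The count was 38 without young male 8, against 33.0% of all genes, and 31 without old male 1, against 24.3%. Irf7, a regulator of interferon genes, had 392, 462 and 653 normalised counts in old males, against 155, 305 and 297 in young males (1.02 ± 0.44, adjusted p = 0.487), and the immunity-related GTPase gene Irgm2 had 4021, 2428 and 2363 normalised counts in old males, against 1143, 1240.3 and 1975 in young males (1.01). Of 28 genes of nucleic acid sensing, 12 lay above (16.3% of all genes), 0 below and 0 were called (median 0.48). Tlr9, the endosomal receptor for DNA, had 99.2, 82.3 and 153 normalised counts in old males, against 30.2, 16.1 and 45.9 in young males (1.89 ± 0.54), and Dnase2a, the lysosomal nuclease that digests DNA, had 447, 427 and 450.1 normalised counts in old males, against 199, 222 and 319.6 in young males (0.86 ± 0.23, adjusted p = 0.307). Under median-of-ratios scaling, where 7.81% of all genes lay above and 7.83% below, 16 class I, 15 interferon-stimulated and 8 sensing genes lay above, and 2 sensing genes and 1 interferon-stimulated gene below. Relative to all genes the medians were 0.45 for class I, 0.41 for interferon-stimulated and 0.33 for sensing genes, and with both organ scores 0.54, 0.46 and 0.48.

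Several chemokines and a cytokine stood well apart between the groups. Of 33 tested chemokine and cytokine genes 13 lay above in all old males and 1 below, against 16.3% and 2.75% of all genes, and 0 were called (median 0.61). Relative to all genes the median was 0.47, and 0.62 with both organ scores. Cxcl13, which attracts B cells, had 186, 143 and 202 normalised counts in old males, against 31.2, 19.6 and 40.1 in young males (2.55 ± 0.69), and Ccl8, which attracts monocytes and T cells, had 242, 135 and 459 normalised counts in old males, against 26.1, 42.6 and 57.7 in young males (2.59 ± 0.90, adjusted p = 0.435, limma). Tnfsf13b, the B cell survival factor BAFF, had 55.5, 109 and 76.3 normalised counts in old males, against 18.1, 33.4 and 26.4 in young males (1.58). For none of these 3 did an old library overlap a young one.

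**Figure D3:**
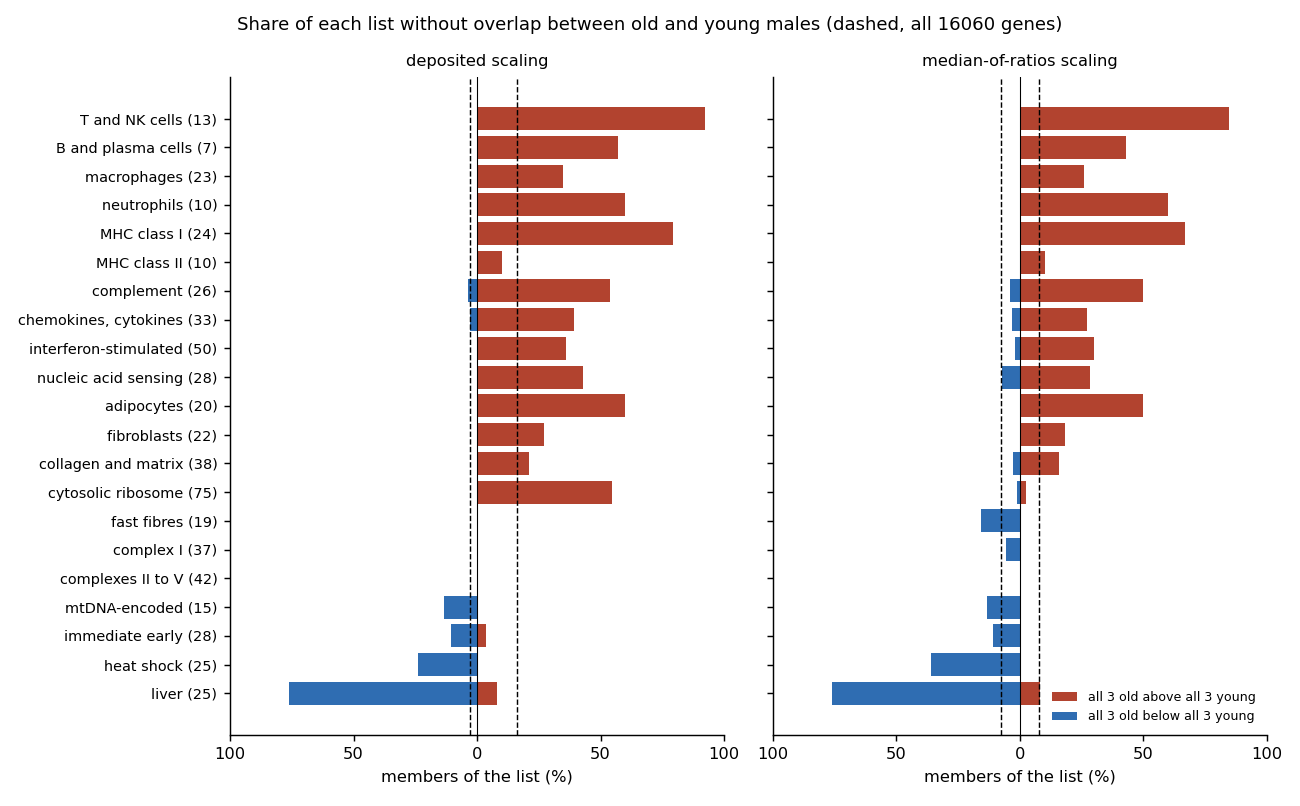
Share of the tested members of 21 gene lists (number in brackets) for which all 3 old males lay above (red, to the right) or below (blue, to the left) all 3 young males, under the deposited scaling (left) and median-of-ratios scaling (right). Dashed lines give the shares over all 16060 genes, 16.3% above and 2.75% below on the left, 7.81% and 7.83% on the right. The cytosolic ribosome list changes most between the panels, with 41 of 75 above on the left and 2 on the right.

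Adipocyte genes stood without overlap in 12 of 20 cases, all of them higher in old males (16.3% of all genes were), with a median of 1.37 and 0 called. The list median relative to all genes was 1.23, and 1.58 with both organ scores. Car3, a carbonic anhydrase abundant in fat and in slow muscle, had 67861, 63137 and 63810 normalised counts in old males, against 26506, 14525 and 13812 in young males (1.89 ± 0.39, adjusted p = 0.153, limma). The old libraries were nearly level for Car3, and young male 1 was the highest of the young. Cfd, the fat-derived complement factor adipsin, had 28236, 43019 and 37764 normalised counts in old males, against 15413, 6202 and 8603 in young males (1.93). The hormone-sensitive lipase gene Lipe (3147, 4710.1 and 4319.5 in old against 1991, 1429 and 1419 in young males, 1.33) and the lipid droplet gene Plin4 (15969, 17610 and 15867 in old against 11730, 8409.7 and 12858 in young males, 0.60) had smaller gaps. Of 22 fibroblast genes 6 lay above, 27.3% against 16.3% of all genes, with a median of 0.32. Without old male 1, 11 did, against 24.3% of all genes. Lox, which crosslinks collagen, had 2114, 1429 and 1286 normalised counts in old males, against 646, 627 and 883 in young males (1.15 ± 0.35, adjusted p = 0.385), and Pdgfra, the receptor that marks fibro-adipogenic progenitors, had 3479, 3773 and 4072 normalised counts in old males, against 1704, 2197 and 3076 in young males (0.74). The collagen genes themselves overlapped, with Col1a1 at 5781, 5948 and 6355 in old against 5575, 8441 and 8068 in young males and Col3a1 at a log2 difference of -0.15. In the matrix list of 38 genes 8 lay above, a share of 21.1% near that of all genes, among them the proteases Mmp14 (0.84) and Mmp3 (92, 104 and 118 in old against 23.1, 27.7 and 19.5 in young males, 2.12). The matrix count was 16 without old male 1, against 24.3% of all genes, and 15 without young male 8, against 33.0%. Without young male 1 another 8 lay below, against 5.67% of all genes. The fibroblast median relative to all genes was 0.17 and the matrix median 0.11, and with both organ scores 0.29 and 0.21. Of 15 endothelial (median 0.02), 10 mural (0.18) and 9 Schwann cell genes (−0.22), 1 stood without overlap, the mural gene Mcam.

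Genes of the fibres themselves did not separate by age over all 6 libraries, and for the fast ones the count without overlap changed when young male 2 was left out. Of 19 fast fibre genes 0 lay above and 0 below in all old males, with 0 called and a median of −0.02, and Myh4 had a log2 difference of 0.21 ± 0.37. Without young male 2, 10 of the 19 lay below in all old males, against 6.41% of all genes, and 5 of 17 slow fibre genes lay above, against 21.1%. The fast fibre median relative to all genes was −0.16, and −0.19 with both organ scores. Slow fibre genes varied widely within both groups. Over all 6 libraries 0 of the 17 lay above or below, with a median of 0.60. Relative to all genes that median was 0.45, and −0.08 without young male 8. Myl2, the slow regulatory light chain, had 50.1, 598 and 739.9 normalised counts in old males, against 8.04, 1578 and 16.6 in young males, and Csrp3, a muscle LIM protein of slow fibres, had 169, 1943 and 1319.7 in old against 161, 4205 and 84 in young males. Old males 3 and 6 and young male 2 were high for both, and old male 1 and young males 1 and 8 low. Of 21 genes of the neuromuscular junction and denervation 2 lay above, Lrp4 and Gdf5, under the 16.3% of all genes, with a median of 0.41 and 0 called. The count was 9 without young male 8, against 33.0% of all genes, and 7 without old male 6, against 24.9%. Lrp4, the agrin receptor, had 1085, 1066 and 919 normalised counts in old males, against 669.5, 782 and 745 in young males (0.48). Old male 1 stood apart here: Chrna1, the alpha subunit of the acetylcholine receptor, had 1336, 498 and 472 in old against 391, 356 and 719 in young males, the fetal subunit gene Chrng had 155, 44.2 and 10.5 in old against 5.03, 5.76 and 12.7 in young males, and Runx1, which denervation induces, had 939, 356 and 445 in old against 231, 254 and 387 in young males. Satellite cell genes had a median of −0.01, and Pax7, the factor that marks these stem cells, had 161, 126 and 120.2 normalised counts in old males, against 142, 186 and 298 in young males (-0.56). The secreted activin inhibitor Fst (1059.7, 934 and 759 in old against 399, 440.3 and 523 in young males, 1.01 ± 0.29) and the myostatin relative Gdf11 (4202, 2282 and 1607 in old against 1374, 663 and 1492 in young males, 1.17 ± 0.36) were above in all old males without passing the threshold. Of 34 genes of senescence and the cell cycle 9 lay above and 2 below in all old males, where 16.3% and 2.75% of all genes did, with a median of 0.27 and 0 called. Without young male 8, 17 of the 34 lay above, against 33.0% of all genes. Of its arrest genes Cdkn1a had 4066, 2274 and 1269 in old against 1755, 2655 and 961 in young males and Cdkn2a had 57.4, 72.8 and 22.9 in old against 8.04, 0 and 49.8 in young males, and both overlapped.

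Transcripts of respiration overlapped between the groups, whereas the ribosomal RNAs of the mitochondrion did not. Of 37 complex I genes and 42 genes of complexes II to V, 0 lay above or below in all old males (medians −0.07 and −0.06) and 0 were called. The complex I median relative to all genes was −0.22, and −0.40 with both organ scores. The share of counts from mitochondrial DNA was 22.7 ± 5.08% in old and 26.3 ± 7.67% in young males (SD, n = 3 each, exact two-sided permutation p = 0.6). Of its 15 tested transcripts, the 2 ribosomal RNAs lay below in all old males, where 2.75% of all genes did. Without old male 6, 4 transcripts did, against 4.46% of all genes. All 15 had a negative log2 difference (median −0.20). Relative to all genes that median was −0.35, and −0.58 with both organ scores. mt-Rnr1 had 46692, 96708 and 107920 normalised counts in old males, against 138160, 275620 and 123230 in young males (-1.09 ± 0.37, adjusted p = 0.435, limma), and mt-Rnr2 had 68687, 127110 and 134790 normalised counts in old males, against 169560, 317440 and 142890 in young males (-0.90 ± 0.33). The library was selected for poly(A) tails, so the level of ribosomal RNA in it also depends on that selection. Counts for the cytosolic ribosomal protein genes depended on the scaling. Under the deposited scaling 41 of 75 lay above in all old males, against 16.3% of all genes, with a median of 0.19. Under median-of-ratios scaling 2 lay above and 1 below, where 7.81% and 7.83% of all genes did, with a median of 0.03. Under the deposited scaling the count was 67 without young male 2, against 21.1% of all genes. It was 66 without old male 1, against 24.3%. Over all genes the median was 0.15 under the deposited scaling and −0.01 under median-of-ratios scaling. Rpl3, the member with the smallest p, kept its gap under both, with 6022, 5445 and 6954 normalised counts in old males, against 2916, 4163 and 4475 in young males (0.69 ± 0.19, adjusted p = 0.335).

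**Figure D4:**
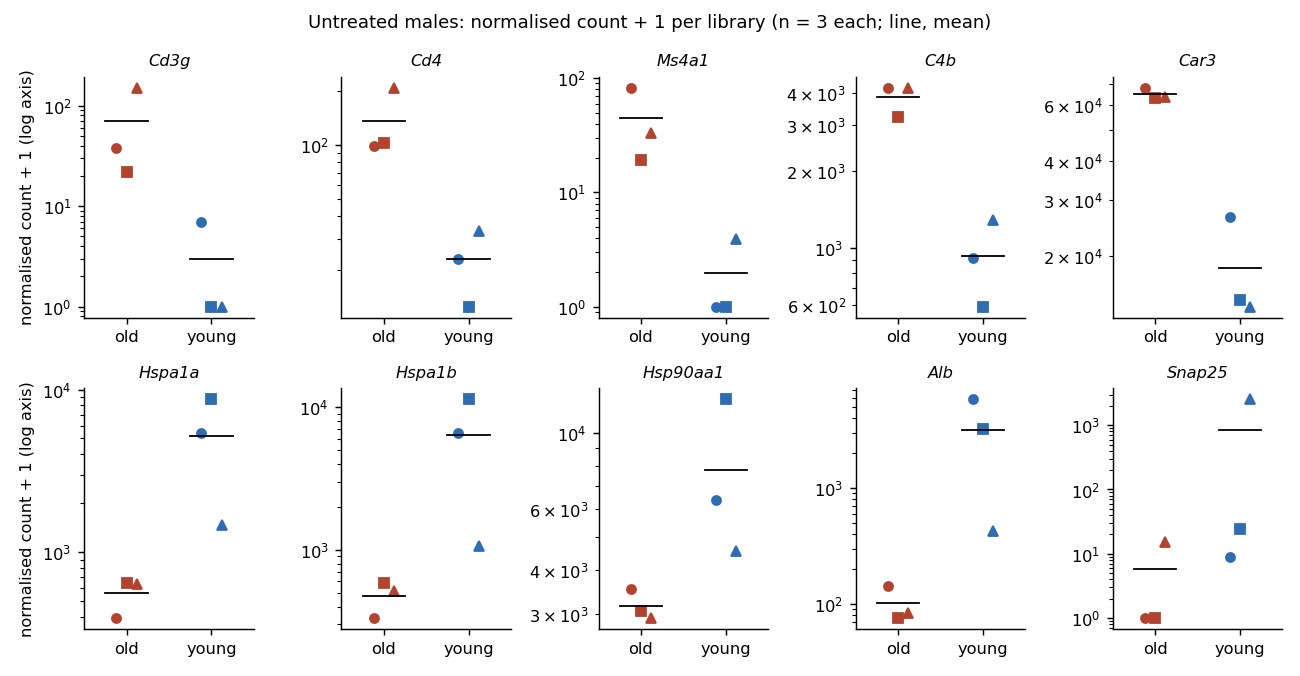
Normalised count + 1 on a log axis for 10 genes of the groups described, 1 point per library in the 3 old and 3 young untreated males (circle, square and triangle are males 1, 3 and 6 in the old group and males 1, 2 and 8 in the young group; line, mean). Lymphocyte, complement and adipocyte genes are higher in old males and heat shock genes and Alb lower, with no overlap, while Snap25 is high in young male 8 only. None of these 10 genes passed the threshold.

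Transposable elements, whose activity 3TC is known to limit, held no subfamily that passed the test in males. Of 968 subfamilies with a mean of at least 10, limma called 0 (0%), with a lowest adjusted p of 0.999. edgeR and DESeq2 called 0 as well. At an unadjusted p under 0.05 limma gave 8 (0.826%). This fit took its spread from all 18 libraries. Young untreated females 1 and 3 among them had a larger share of counts from elements than any other library. Without these females 58 subfamilies had an unadjusted p under 0.05 (limma), and with only the 6 male libraries 27 did. In both fits 0 were called. The count of 8 thus depended on the libraries in the fit, and does not show that elements were unchanged. All 3 old males lay above for 68 subfamilies (7.02%) and below for 8 (0.826%), and the median difference was 0.21, against 0.15 for genes. That median was 0.45 without young male 8, 0.08 without young male 2 and 0.11 without young male 1, and 0.06 with median-of-ratios scaling. Under median-of-ratios scaling 42 lay above (4.34%) and 26 below (2.69%). Among 587 LTR subfamilies, the remnants of retroviruses, 51 lay above and 3 below. Among 150 LINE subfamilies 4 lay above and 3 below, and among 35 SINE subfamilies 0 did either. All elements together took 2.15, 2.01 and 2.13% of counts in old males, against 1.71, 1.54 and 2.51% in young males, a difference of 0.18 points (exact two-sided permutation p = 0.6). The difference was 0.47 points without young male 8 (exact permutation p = 0.1) and −0.02 without young male 2. Young male 8 had the highest share and the other young males the lowest.

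The age change was not shown to differ between males and females for any gene. The test of the difference called 0 of 16060 genes (0%), with a lowest adjusted p of 0.919 and 783 genes (4.88%) at an unadjusted p under 0.05. edgeR called 0 genes as well and DESeq2 called 152, of which 136 were lower in the male than in the female change. Across the 16060 genes, which are not independent of each other, the log2 changes of the sexes, which share no library, had a Pearson correlation of 0.24 and a Spearman correlation of 0.22. Ide changed by 1.22 in males and differed by 0.83 ± 0.14 in females, and Btaf1 by 1.17 in males and 1.14 in females. Other genes lay further apart. Nr4a3 differed by -3.82 ± 0.71 in males and -0.02 ± 0.71 in females (male minus female -3.81 ± 1.00, adjusted p = 0.919, limma). Hsp90aa1 differed by -1.18 in males and 0.49 in females, and Cd3g by 4.71 and -0.39. Of the 25 heat shock genes 6 had an unadjusted p under 0.05 for the difference between the sexes, and so did 4 of 13 T and NK and 4 of 7 B and plasma cell markers. The naming rule took genes by the smallest unadjusted p for the difference between the sexes (limma), not by its size. Where the change was higher in males these were Gimap3, a GTPase of lymphocytes (2.40 in males, -0.58 in females), the nuclear RNA Neat1 (0.87 and -0.21), Fam214a, Meis1 and Apeh. Where it was lower in males they included Actr3b (-0.17 and 1.34), the neural gene Ttyh1 (-2.04 and 2.52), Slc30a2 and Hsp90aa1. The brain score moved in opposite directions in the sexes, by −1.47 in males and 1.95 in females (exact two-sided permutation p = 0.3 and 0.1), and Ttyh1 was highest in young male 8 among the males.

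**Figure D5:**
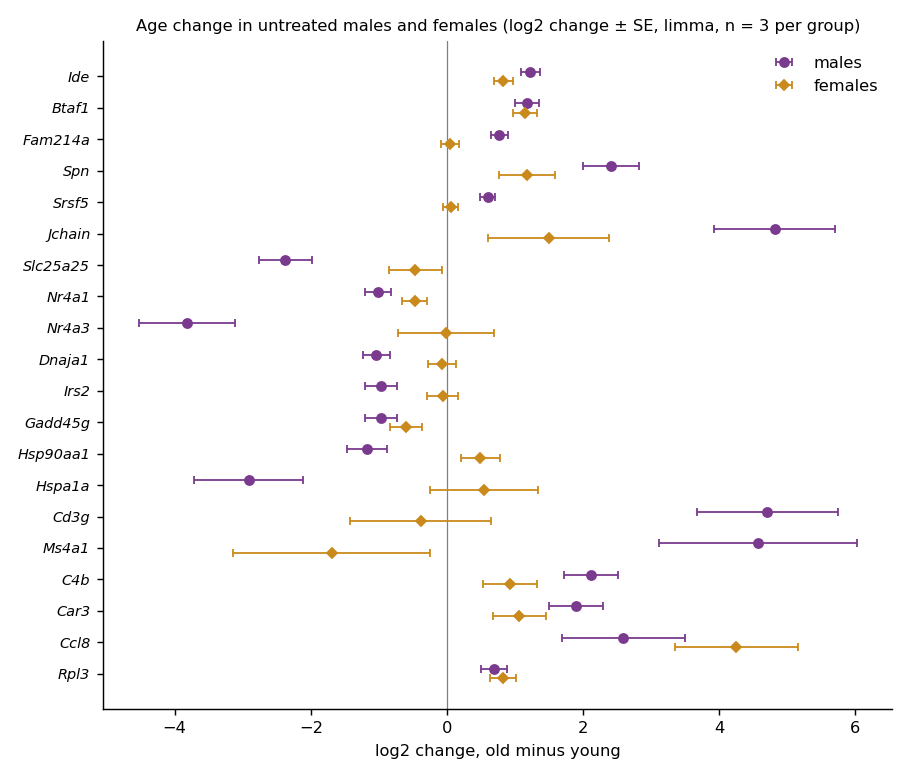
Log2 change with age (old minus young, ± SE from limma, n = 3 libraries per group) in untreated males (purple circles) and untreated females (gold diamonds) for 20 named genes. Btaf1 and Rpl3 lie close together in the sexes, and Ide is above 0 in both, at 1.22 in males and 0.83 in females. Nr4a3, Slc25a25, Hspa1a, Cd3g and Ms4a1 lie further apart. No difference between the sexes passed the threshold.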

How the data were processed

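The deposited signal is a table of normalised read counts per gene and transposable-element subfamily, in which the authors scaled every library to 74.0 M counts. The submitters' processing notes name STAR and mm10. The counting program, its annotation and its strand setting are not given in the sources used here. Every value was a whole multiple of 1 step per library (tolerance 0.001), so reads were recovered for the count tests. Rows with dates in place of symbols (27, 0.0628 to 0.0831% of counts) were left out. Coordinates came from GENCODE vM21 (GRCm38).

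Genes with a mean of at least 10 over 18 libraries (16060) were fitted with limma 3.58.1 in R 4.3.3 on log2(value + 1), with 6 groups of arm and sex and 12 residual degrees of freedom. Calls needed a Benjamini-Hochberg adjusted p under 0.05. The 968 subfamilies were fitted apart. edgeR 4.0.16 and DESeq2 1.42.0 on recovered reads, median-of-ratios scaling, other pseudocounts (0.5, 10) and filters, covariates and omitted libraries were alternatives, and the method was checked on simulated data. The 48 lists (1099 genes) and the compared libraries were chosen with earlier results of these data known. Named genes were called genes without overlap and a mean of at least 50, filled to 6 per direction by smallest p, 4 per list by smallest p, 5 per direction for the sexes and 17 genes from a fixed set. Others, such as Fgfbp3, Chrng and the constitutive chaperones, were picked after their values were seen. Some genes that the rule takes are not reported here.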

Additional observations from a re-analysis of the deposited data

How the results depend on the processing

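No paired analysis was possible because the old and young males share only replicate number 1. The count of 2 genes called for age in males became 183 with DESeq2 (which gave 40 genes no adjusted p), 1 with edgeR, 1 with edgeR without the 2 libraries whose step lies near 1, 48 with liver and brain scores and 4 with the liver score as covariates, 1 with median-of-ratios scaling, 1 without a trend, 6 with only the 12 untreated libraries (2 higher, 4 lower) and 6 with a pseudocount of 10 (5 higher, 1 lower). With only the 6 male libraries it was 3, all lower, and neither Ide nor Btaf1. It was 5 without young untreated females 1 and 3, which, like edgeR without the 2 libraries of a step near 1 and the list counts without 1 library, was added after the data were seen. Leaving out 1 male library gave 1 to 37, the highest without young male 8. The sex difference, 0 genes, became 152 with DESeq2 and 2 with both covariates, and was 0 in each fit without 1 library. The transposable-element count was 0 in all 20 alternatives. The liver score difference of −4.07 became −2.83 with a pseudocount of 10. The cause of these shifts was not tested. Ide lost its call with only the 6 male libraries, whose fit has 4 residual degrees of freedom (adjusted p = 0.126, limma). With 3 libraries a group, an exact permutation test cannot go below p = 0.1, and genes near 0 counts, such as T and B cell markers, have changes that depend on the pseudocount.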

Other observations

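Some gene groups outside the themes above also had members without overlap between old and young males. Of 25 genes that silence or restrict retroelements 10 lay above in all old males, against 16.3% of all genes, and 0 were called (median 0.31), among them Apobec1, a cytidine deaminase, with 391, 387 and 441 normalised counts in old males, against 143, 229 and 324 in young males (0.88 ± 0.28, adjusted p = 0.415, limma), and the helicase gene Mov10 with 210.3, 199 and 192 in old against 121, 74.9 and 110.4 in young males. Under median-of-ratios scaling 5 of the 25 did so, against 7.81% of all genes. Of 20 genes of muscle atrophy 5 lay above and 1 below, where 16.3% and 2.75% of all genes did, and 0 were called. Their median of 0.18 was 0.03 above that of all genes. Without old male 6, 11 lay above, against 24.9% of all genes. Nedd4, a ubiquitin ligase, had 33575, 28139 and 26675 in old against 23584, 16927 and 24800 in young males. The classical atrophy ligases Trim63 and Fbxo32 overlapped, at log2 differences of -0.13 and 0.03. Angptl4, a secreted inhibitor of lipoprotein lipase, had 1158, 1514 and 1083 normalised counts in old males, against 494, 77.2 and 331 in young males (2.40 ± 1.02). Ostn, the muscle-secreted peptide osteocrin, had 1432, 1260.3 and 665 normalised counts in old males, against 202, 362 and 240.4 in young males (2.03). Trib3, a pseudokinase of the amino acid stress response, had 145, 110.1 and 147 in old against 60.3, 70.3 and 48.9 in young males (1.15), while Atf4, its activator, was lower in all old males (11454, 12192 and 11351 in old against 15047, 13223 and 14261 in young males). Of 31 proteasome genes 0 lay above or below, with a median of 0.02, and under median-of-ratios scaling 6 lay below, against 7.83% of all genes. Without old male 1, 7 lay below, against 4.53% of all genes.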
